A study of Homo sapiens with 8 samples.

Results

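The 10 genes described here encode proteins that act on, or are acted on by, mechanistic target of rapamycin complex 1 (mTORC1): SESN1, SESN2, SESN3, DDIT4, NIBAN1, DEPTOR, EIF4EBP1, TSC1, TSC2 and RHEB. They were taken by gene symbol, all 10 were found, and all 10 were among the 16449 genes that passed the filter on low counts, of 58193 genes with a matched transcript. The choice was made with their differences from DMSO known, so those differences are given as a description without a test. Differences between the compounds and the use of transcripts were not part of the choice and were tested. The set is not one of inhibitors alone, since RHEB activates mTORC1 and EIF4EBP1 is a substrate.

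RNA was sequenced from the established human cell line HT29, which derives from a colorectal adenocarcinoma, after exposure to reverse-turn peptidomimetics, small molecules that mimic a turn in a protein chain. There were 4 groups of 2 libraries: the vehicle DMSO at 0.1% for 48 h, 10 µM ICG-001, 1.5 µM CWP232228 and 0.3 µM YB-0158. The second library of ICG-001 and that of CWP232228 are labelled 49 h and the other compound libraries 48 h. The doses differ, so a difference between compounds is one between these treatments as given. No source used here says whether the replicates were separate cultures, so the p-values reflect no more than library-to-library spread, possibly technical in origin.

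mTORC1 is a protein kinase complex at the lysosome that promotes protein synthesis and growth and holds back autophagy. Amino acids switch it on through the Rag GTPases, and growth factors do so through RHEB, which the TSC1-TSC2 complex keeps inactive. Sestrins and DDIT4 are stress-induced brakes on these inputs: SESN2 senses leucine and acts through the GATOR complexes, and DDIT4 (also called REDD1) acts through the TSC complex. The stress factor ATF4 is known to switch on SESN2, DDIT4, NIBAN1 and EIF4EBP1, p53 is known for SESN1 and SESN2, and FOXO factors for SESN1 and SESN3.

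Libraries held between 29071547 and 58489118 estimated reads. The floor, taken as 3 counts, lay at 0.0513 to 0.103 CPM, which are counts scaled to library size. No gene of the 10 was near it. Of 10 colonic epithelial markers, 9 exceeded 1 CPM in every library, with the exception of CDX1 (0.512 to 1.94 CPM). The summed epithelial level was 14858 to 17226 CPM with DMSO, 11810 to 12224 with ICG-001, 11228 to 11825 with CWP232228 and 13372 to 13550 with YB-0158. KRT8 (5518 to 9094 CPM) and KRT18 (3221 to 5457 CPM) made up most of this sum. Single markers moved in both directions against DMSO. Their log2 fold changes ran from -0.76 to 2.77 with ICG-001, -0.58 to 1.94 with CWP232228 and -1.37 to 2.70 with YB-0158. The fibroblast genes COL1A2 and PDGFRA and the T cell gene CD3E were at 0 in every library, and the leukocyte gene PTPRC reached at most 0.0326 CPM. The fibroblast genes COL1A1 and LUM stood at 1.12 to 4.42 and 0.707 to 3.79 CPM. All 6 fibroblast markers summed to 4.26 to 6.04 CPM. LYZ, which some colorectal cells also express, stood at 2479 to 2862 CPM, and the other leukocyte markers summed to 2.29 to 4.28 CPM. Endothelial markers summed to 0.870 to 1.74 CPM. The part of the shifts in epithelial markers in the results was not tested. In bulk RNA, a change in the number of cells of a kind and in the RNA per cell cannot be told apart. The 2 DMSO libraries differed from each other more than replicates of a compound did, with an SD over genes of the log2 difference of 0.33 against 0.16 to 0.17.

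SESN2 (chr1:28259527-28282491), DDIT4 (chr10:72273920-72276036) and NIBAN1 (chr1:184790724-184974550) are the 3 genes with the largest differences from DMSO in the uncorrected fit, and the DNA before their starts is shown because their levels followed the same order of groups or nearly so. The sequences come from RefSeq, build GRCh38.p14, 5′ to 3′ on the strand of the gene: SESN2 chr1:28259268-28259517 on the plus strand, DDIT4 chr10:72273674-72273919 on the plus strand and NIBAN1 chr1:184974551-184974758 on the minus strand. Capitals mark matches to any of the 4 motifs named after them.
SESN2: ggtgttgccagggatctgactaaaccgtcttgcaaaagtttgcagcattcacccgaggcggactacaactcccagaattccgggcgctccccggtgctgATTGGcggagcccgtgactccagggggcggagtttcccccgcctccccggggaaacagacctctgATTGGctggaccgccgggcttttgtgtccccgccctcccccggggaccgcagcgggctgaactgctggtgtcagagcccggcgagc
DDIT4: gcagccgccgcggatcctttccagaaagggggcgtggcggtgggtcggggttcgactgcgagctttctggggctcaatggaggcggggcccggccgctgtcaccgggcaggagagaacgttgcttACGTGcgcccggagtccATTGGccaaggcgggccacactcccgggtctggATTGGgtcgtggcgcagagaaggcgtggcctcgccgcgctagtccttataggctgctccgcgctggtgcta
NIBAN1: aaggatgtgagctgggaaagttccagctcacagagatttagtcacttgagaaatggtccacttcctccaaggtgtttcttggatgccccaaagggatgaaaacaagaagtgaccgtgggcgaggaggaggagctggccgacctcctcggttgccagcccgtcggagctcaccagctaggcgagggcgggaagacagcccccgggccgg
Each motif was searched on both strands in the 250 bases before the RefSeq start, of which the printed DDIT4 and NIBAN1 stretches leave out the last 4 and 42. SESN2 held a pair of CCAAT boxes (CCAAT, here as the reverse complement ATTGG) that began 151 and 86 bases before the start. DDIT4 held the same element at 108 and 75 bases, and one match to ACGTG, the core bound by hypoxia-inducible factors, at 125 bases. NIBAN1 matched none of the 4 motifs. TGATGNAA, the core of the composite element bound by ATF4 with a C/EBP partner, and GTAAACA, the FOXO core, matched in none of these 3 windows. Over all 35116 windows of this length, 32% held CCAAT, 18.5% ACGTG, 3.14% TGATGNAA and 2.98% GTAAACA. The 3 genes thus shared no one of these motifs in this window. Of the 8 genes with an entry used here, TSC2 alone held TGATGNAA, as TGATGCAA at 110 bases, where it shares bases with a match to ACGTG. DEPTOR and EIF4EBP1 were not searched. The upstream windows of SESN2, DDIT4 and NIBAN1 held 65.6%, 68.8% and 61.2% G and C, against a median of 58% over all windows.

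**Figure D1:**
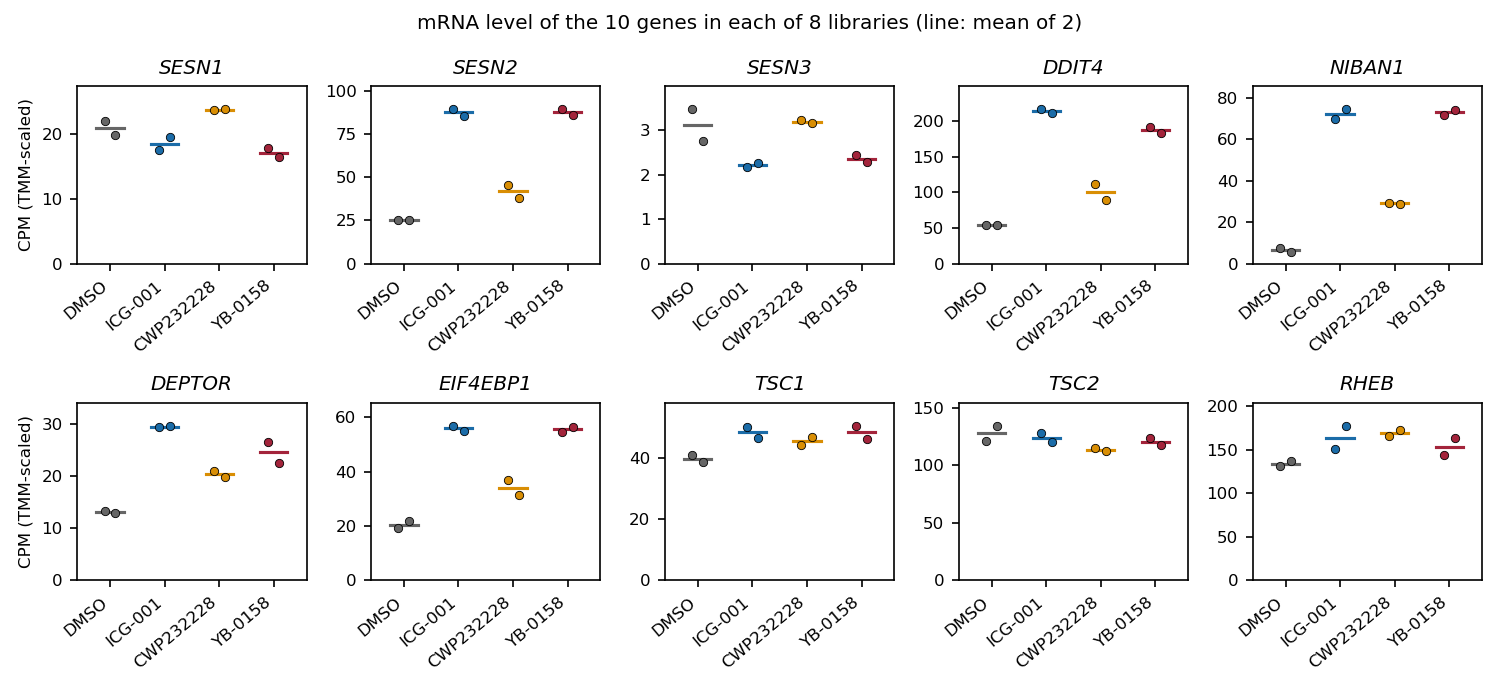
Level of each of the 10 genes in each library, in CPM scaled between libraries (vertical axes, each starting at 0 with its own scale), with 1 point per library and a line at the mean of 2. SESN2, DDIT4, NIBAN1, DEPTOR and EIF4EBP1 were lowest with DMSO, between with CWP232228 and highest with ICG-001 and YB-0158, while TSC1, TSC2 and RHEB differed little.

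NIBAN1, a stress-induced protein linked to the control of translation, differed most from DMSO of the 10. It stood at 7.44 and 5.73 CPM with DMSO, 69.8 and 74.6 with ICG-001, 29.4 and 28.7 with CWP232228, and 71.8 and 74.3 with YB-0158. Every compound library lay above both DMSO libraries, and both CWP232228 libraries lay below those of the other compounds. The fitted log2 fold change against DMSO was 3.45 ± 0.12 (SE) with ICG-001, 2.14 ± 0.12 with CWP232228 and 3.47 ± 0.12 with YB-0158. Corrected for GC content and length, these became 2.96, 1.67 and 2.99.

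DDIT4 stood at 53.6 and 54.6 CPM with DMSO, 216 and 210 with ICG-001, 111 and 89.7 with CWP232228, and 192 and 183 with YB-0158. The 4 groups did not overlap, in the order DMSO, CWP232228, YB-0158 and ICG-001. Its log2 fold change against DMSO was 1.98 ± 0.10 (SE) with ICG-001, 0.89 ± 0.10 with CWP232228 and 1.79 ± 0.10 with YB-0158.

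The 3 sestrins did not share one pattern. SESN2 stood at 25.13 and 24.99 CPM with DMSO, 89.2 and 85.4 with ICG-001, 45.6 and 38.2 with CWP232228, and 89.1 and 85.7 with YB-0158. The ICG-001 and YB-0158 libraries covered the same range, and the CWP232228 libraries lay between them and DMSO. The log2 fold changes were 1.80 ± 0.10 (SE), 0.74 ± 0.10 and 1.80 ± 0.10 with ICG-001, CWP232228 and YB-0158. SESN1 stood at 22.1 and 19.9 CPM with DMSO, 17.5 and 19.6 with ICG-001, 23.7 and 23.8 with CWP232228, and 17.8 and 16.5 with YB-0158. Here CWP232228 was the highest group and YB-0158 and ICG-001, which overlapped, the lowest, the reverse of their order for SESN2. The SESN1 log2 fold changes were small, at -0.18 ± 0.10, 0.18 ± 0.10 and -0.29 ± 0.10. SESN3 was the scarcest of the 10, at 3.48 and 2.76 CPM with DMSO, 2.18 and 2.27 with ICG-001, 3.22 and 3.16 with CWP232228, and 2.44 and 2.28 with YB-0158. The CWP232228 libraries fell within the range of DMSO, and those of ICG-001 and YB-0158 below it. Its log2 fold changes were -0.49 ± 0.18, 0.03 ± 0.18 and -0.40 ± 0.17. SESN3 has a low GC content, 37.1% over its transcripts, and corrected for GC content and length these became -1.41, -1.002 and -1.20. The same correction took SESN1 to -0.51, -0.19 and -0.55, so the sign with CWP232228 turned. The authors' deposited tables give log2 fold changes smaller in size than the uncorrected ones. They are -0.016, 0.11 and -0.20 for SESN1 and -0.34, -0.019 and -0.22 for SESN3.

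DEPTOR, an inhibitory subunit that binds mTOR, stood at 13.2 and 12.9 CPM with DMSO, 29.4 and 29.7 with ICG-001, 20.9 and 19.8 with CWP232228, and 26.6 and 22.6 with YB-0158. The 4 groups did not overlap. Its log2 fold changes were 1.18 ± 0.10 (SE), 0.64 ± 0.11 and 0.91 ± 0.10 with ICG-001, CWP232228 and YB-0158. For DEPTOR the authors' deposited tables give lower log2 fold changes of 1.06, 0.41 and 0.80, each with an SE of 0.18.

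EIF4EBP1 encodes 4E-BP1, which binds the cap-binding protein eIF4E and blocks translation until mTORC1 phosphorylates it. It stood at 19.2 and 21.8 CPM with DMSO, 57.0 and 55.0 with ICG-001, 36.8 and 31.3 with CWP232228, and 54.6 and 56.6 with YB-0158. The ICG-001 and YB-0158 libraries overlapped and all lay above those of CWP232228, which lay above DMSO. The log2 fold changes were 1.45 ± 0.10 (SE), 0.73 ± 0.11 and 1.44 ± 0.10. EIF4EBP1 is rich in G and C, 65.5% over its transcripts, and the correction for GC content and length raised these to 2.12, 1.46 and 2.05, above the corrected values of SESN2 (2.03, 1.02 and 2.00) with each compound and of DDIT4 (1.32) with CWP232228.

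The 3 genes of the TSC-RHEB switch differed from DMSO by at most 0.34 on the log2 scale in the uncorrected fit. TSC1 stood at 40.8 and 38.4 CPM with DMSO, 49.9 and 46.5 with ICG-001, 44.1 and 46.6 with CWP232228, and 50.4 and 46.2 with YB-0158. All 6 compound libraries lay above DMSO, by a log2 fold change of 0.28 ± 0.09 (SE), 0.19 ± 0.09 and 0.29 ± 0.09. The sign turned with the correction for GC content and length, to -0.16, -0.22 and -0.17. TSC2 stood at 121 and 134 CPM with DMSO and between 112 and 128 in the compound libraries, with log2 fold changes of -0.04 ± 0.08, -0.17 ± 0.08 and -0.08 ± 0.08. Both CWP232228 libraries, at 115 and 112 CPM, lay below the range of DMSO, as did the second library of ICG-001 (120.2 CPM) and that of YB-0158 (117 CPM). TSC2 overlaps NTHL1 and PKD1 on the opposite strand, with means of 1346 and 4079 estimated reads, and the kit does not mark strand, so its values are uncertain. RHEB stood at 131 and 137 CPM with DMSO, 150 and 178 with ICG-001, 165 and 172 with CWP232228, and 144 and 163 with YB-0158. All 6 compound libraries lay above DMSO, with log2 fold changes of 0.29 ± 0.10, 0.34 ± 0.10 and 0.20 ± 0.10. In the authors' deposited tables TSC1 is lower, at 0.055, 0.18 and 0.032. There TSC2 has the other sign, at 0.20, 0.018 and 0.094, and RHEB is higher, at 0.41, 0.40 and 0.29.

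**Figure D2:**
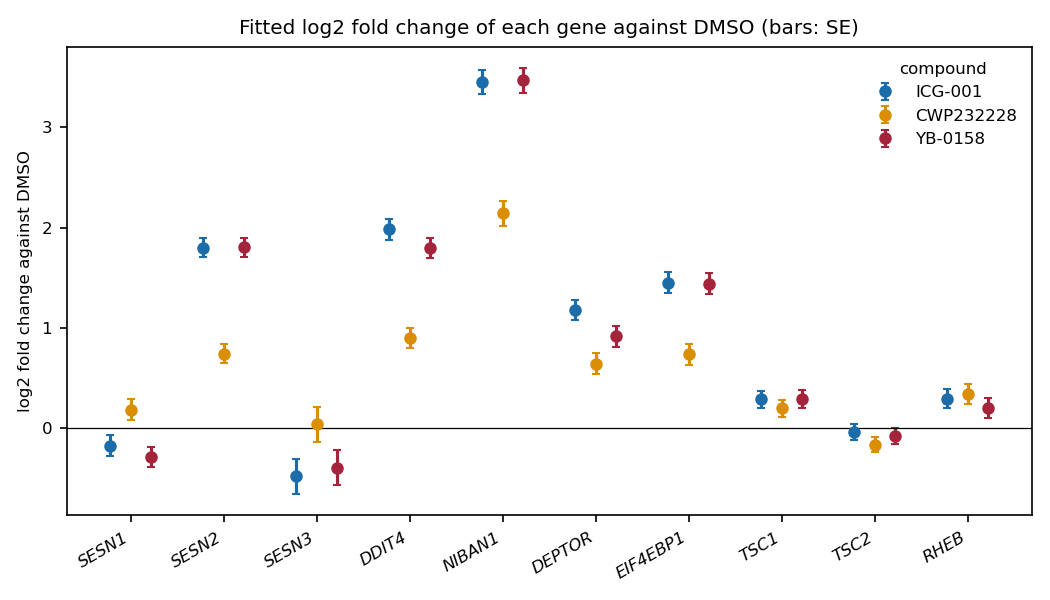
Fitted log2 fold change of each gene against DMSO (vertical axis) for ICG-001, CWP232228 and YB-0158, with bars for 1 SE. NIBAN1 reached 3.45 and 3.47 with ICG-001 and YB-0158 against 2.14 with CWP232228, and values for TSC1, TSC2 and RHEB lay between -0.17 and 0.34.

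A call throughout is a Benjamini-Hochberg adjusted p under 0.05 in edgeR's quasi-likelihood test. By this call 48.8% of all genes differed from DMSO with ICG-001 (24.8% higher and 24% lower). With CWP232228 42.8% did (21.6% higher and 21.2% lower), and with YB-0158 43.8% (21.7% higher and 22.1% lower). Calls of the 10 against DMSO are not counted as a result, since the genes were chosen on these differences. The 3 comparisons share the DMSO libraries. The median log2 fold change of the 10 was 0.73, 0.49 and 0.60 with ICG-001, CWP232228 and YB-0158, beside 0.03, 0.04 and 0.02 over all genes. With the correction for GC content and length the medians of the 10 were 0.68, 0.42 and 0.51.

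Levels of different genes were compared per transcript length, in TPM, Salmon's length-scaled unit. With DMSO the order was RHEB at 146 ± 6.19 TPM (SD, n = 2), TSC2 at 58.9 ± 14.5, DDIT4 at 32.2 ± 2.45, EIF4EBP1 at 26.9 ± 0.345, SESN1 at 11.3 ± 2.55, TSC1 at 10.4 ± 2.63, DEPTOR at 6.22 ± 0.858, SESN2 at 6.03 ± 0.460, NIBAN1 at 0.924 ± 0.250 and SESN3 at 0.3999 ± 0.104. The libraries of SESN1 and TSC1 overlapped, as did those of DEPTOR and SESN2, and the other neighbours did not overlap. With ICG-001, DDIT4 at 137 ± 8.61 TPM came second after RHEB at 211 ± 20.3. There EIF4EBP1 (79.9 ± 3.84) and TSC2 (76.5 ± 11.7) overlapped, and NIBAN1, at 11.2 ± 0.00686, lay beside TSC1 (11.5 ± 1.49) and SESN1 (11.8 ± 0.133). With YB-0158 DDIT4 was also second, at 118 ± 4.81 TPM, and NIBAN1 at 11.3 ± 0.809 overlapped with TSC1 and DEPTOR. With CWP232228, DDIT4 (65.9 ± 8.81 TPM) overlapped with TSC2 (65.6 ± 15.0), and NIBAN1 stayed ninth at 4.44 ± 0.125. SESN3 was last in every group.

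CWP232228 at 1.5 µM gave lower levels of NIBAN1, DDIT4, SESN2, EIF4EBP1 and DEPTOR than ICG-001 at 10 µM. Of the 10 genes 5 were called lower and 0 higher, where 6.82% of all genes were called in either direction, 3.17% lower and 3.65% higher. The genes were chosen on other comparisons of the same libraries, and that choice favours genes with large responses. NIBAN1 was lower by a log2 difference of -1.31 (95% interval -1.55 to -1.07, adjusted p = 0.0014). DDIT4 differed by -1.09 (-1.31 to -0.86, adjusted p = 0.0019) and SESN2 by -1.06 (-1.27 to -0.84, adjusted p = 0.0017). EIF4EBP1 differed by -0.72 (-0.95 to -0.49, adjusted p = 0.0066) and DEPTOR by -0.54 (-0.77 to -0.31, adjusted p = 0.019). SESN1 and SESN3 differed in the other direction and were not called, by 0.36 (0.13 to 0.59, adjusted p = 0.071) and 0.52 (0.12 to 0.92, adjusted p = 0.12). For TSC1, TSC2 and RHEB the intervals ran from -0.28 to 0.11, -0.31 to 0.05 and -0.18 to 0.27.

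NIBAN1, DDIT4 and SESN2 were called in this comparison in the main fit and in all 10 alternatives to it. EIF4EBP1 lost its call without the first ICG-001 library (adjusted p = 0.085) or the second CWP232228 library (adjusted p = 0.08). DEPTOR lost its call without any 1 of the 4 libraries compared, with adjusted p-values of 0.1 to 0.18.

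**Figure D3:**
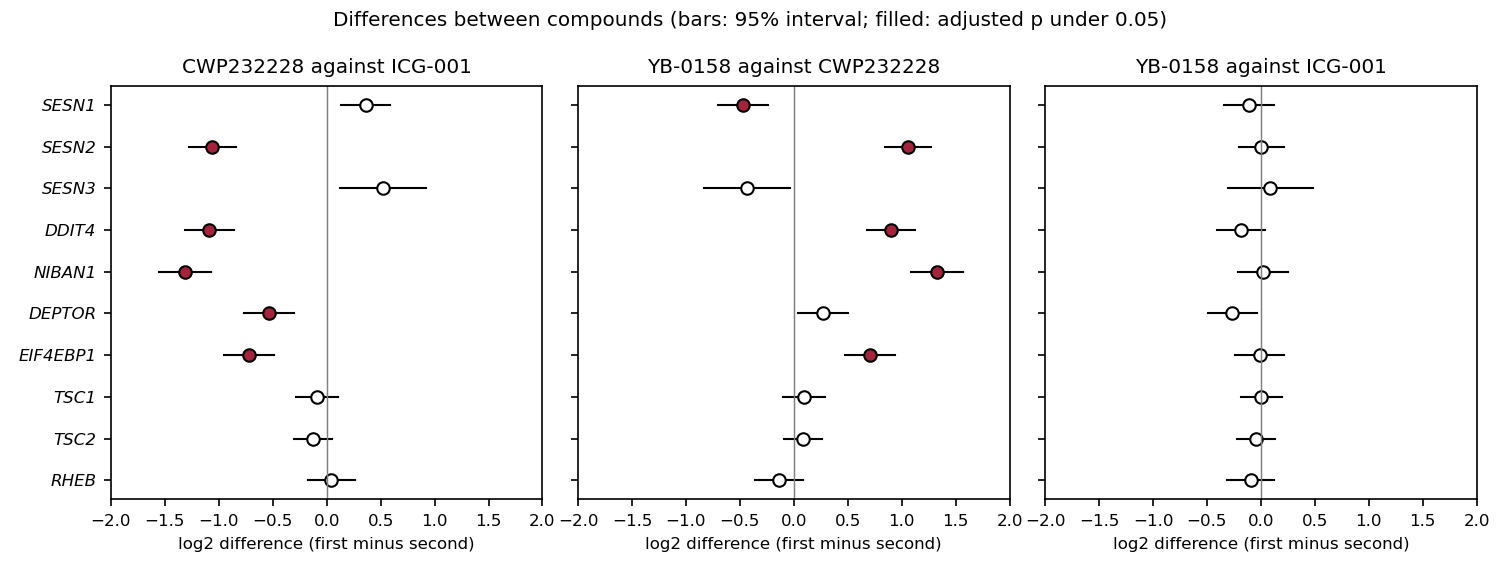
Log2 difference between compounds for each gene (horizontal axis, first named minus second), with bars for the 95% interval and filled points for an adjusted p under 0.05. CWP232228 against ICG-001 has 5 filled points, all below 0, YB-0158 against CWP232228 has 5, of which SESN1 is below 0, and YB-0158 against ICG-001 has none.

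YB-0158 at 0.3 µM gave higher levels of 4 of the 10 genes than CWP232228 and a lower level of 1, where 7.78% of all genes were called, 3.56% higher and 4.21% lower. This comparison shares the CWP232228 libraries with the one above. NIBAN1 was higher by 1.33 (95% interval 1.09 to 1.57, adjusted p = 0.001), SESN2 by 1.06 (0.85 to 1.28, adjusted p = 0.0014), DDIT4 by 0.90 (0.67 to 1.12, adjusted p = 0.0026) and EIF4EBP1 by 0.71 (0.47 to 0.94, adjusted p = 0.006). SESN1 was lower, by -0.47 (-0.70 to -0.24, adjusted p = 0.028). DEPTOR differed by 0.27 (0.04 to 0.50, adjusted p = 0.14) and SESN3 by -0.44 (-0.83 to -0.04, adjusted p = 0.17), neither called. NIBAN1, SESN2 and DDIT4 were called in all 10 alternatives. SESN1 was lost without any 1 of the 4 libraries (adjusted p 0.14 to 0.19) and with the replicate block (adjusted p = 0.059), and EIF4EBP1 without the second CWP232228 library or either YB-0158 library (0.054 to 0.078).

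No difference between YB-0158 at 0.3 µM and ICG-001 at 10 µM was called for any of the 10 genes. Over all genes edgeR called 1 (0.00608%, higher, with 0% lower), so this comparison had few calls of any kind. The alternative tool DESeq2 also called 0 of the 10, and only 28 of all 16449 genes. At an unadjusted edgeR p under 0.05 there was 1 of the 10, DEPTOR, with a log2 difference of -0.26 (95% interval -0.49 to -0.04, adjusted p = 0.87). The intervals bound the differences that these libraries allow: -0.21 to 0.21 for SESN2, -0.22 to 0.25 for NIBAN1, -0.41 to 0.03 for DDIT4, -0.24 to 0.22 for EIF4EBP1, -0.34 to 0.12 for SESN1 and -0.31 to 0.48 for SESN3. TSC1, TSC2 and RHEB had intervals of -0.19 to 0.20, -0.22 to 0.13 and -0.32 to 0.13.

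Over the 8 libraries, the pattern of SESN2 was close to that of DDIT4. Likeness was measured as the root mean square difference of log2 CPM after each gene was centred on its own mean, over 11326 genes, and is a description. SESN2 and DDIT4 differed by 0.087. The non-members nearest to SESN2 were KLF4, a transcription factor of differentiating epithelium (0.088), IFRD1 (0.093) and VEGFA, the angiogenic growth factor (0.12). DDIT4 was nearest to IFRD1 (0.10), SLC3A2, a heavy chain of amino acid transporters (0.11), and KLF4 (0.12). NIBAN1, with its larger range, was nearest to CHAC1, which breaks down glutathione (0.18), CEACAM6, an epithelial adhesion molecule (0.19), and NEBL (0.20). VEGFA stood at means of 87.0 CPM with DMSO, 274 with ICG-001, 155 with CWP232228 and 273 with YB-0158, and CHAC1 at 5.91, 84.2, 29.01 and 75.6. EIF4EBP1 differed from SESN2 by 0.18 and DEPTOR by 0.38, while SESN1 and SESN3 differed by 0.91 and 0.98.

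**Figure D4:**
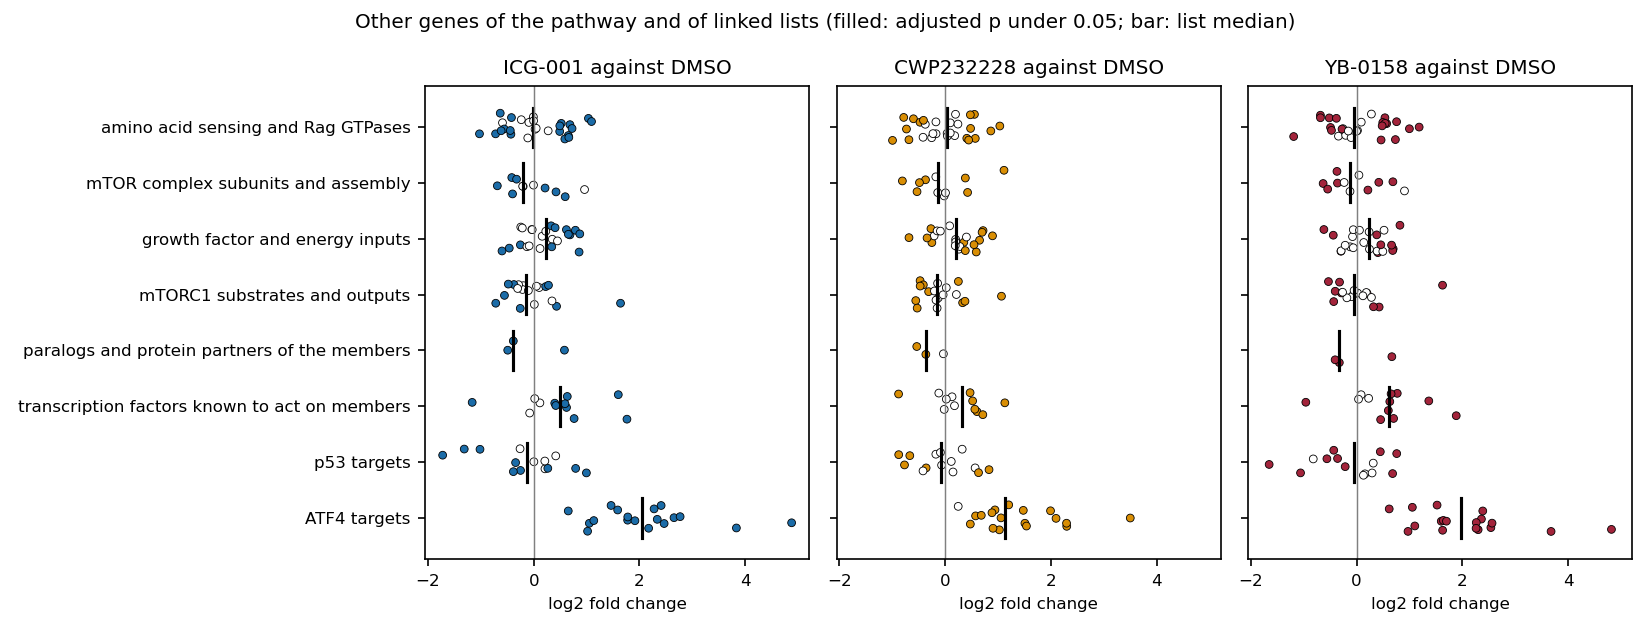
Log2 fold change against DMSO (horizontal axes, the same in the 3 panels) of the other genes of the pathway and of linked lists, 1 point per gene, filled where the adjusted p was under 0.05, with a bar at the list median. Points of the 5 pathway lists lie on both sides of 0, and all points of the ATF4 target list lie above 0.

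The rest of the pathway, 88 further genes in 5 lists of which 83 were tested, moved in both directions. With ICG-001 27 were higher and 22 lower (59% called, against 48.8% of all genes), with CWP232228 23 and 23 (55.4%, against 42.8%) and with YB-0158 25 and 22 (56.6%, against 43.8%). The medians were -0.0037, -0.033 and -0.0012 on the log2 scale. Corrected for GC content and length, the counts were 25 and 19 (53%), 10 and 14 (28.9%), and 23 and 22 (54.2%). Of all 16449 genes, 7778, 4265 and 7292 were called with this correction, where 8025, 7042 and 7209 were without it. The pathway count fell without the second CWP232228 library and without either YB-0158 library, and calls over all genes fell there too.

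Of 28 amino acid sensing and Rag GTPase genes tested, 10 were higher and 8 lower with ICG-001, 8 and 7 with CWP232228, and 10 and 8 with YB-0158, with medians of -0.0039, 0.040 and -0.053. These were 64.3%, 53.6% and 64.3% called, against 48.8%, 42.8% and 43.8% of all genes. LARS1, the leucyl-tRNA synthetase, rose with ICG-001 by 1.09 ± 0.11 (SE, adjusted p = 1.3e-04). Its means were 69.2 CPM with DMSO, 148 with ICG-001, 126 with CWP232228 and 138 with YB-0158. FNIP1, a partner of folliculin, rose by 1.04 ± 0.14 with ICG-001, 1.03 ± 0.14 with CWP232228 and 1.18 ± 0.14 with YB-0158. LAMTOR4, part of the lysosomal Ragulator scaffold, changed by -0.995 ± 0.09 with CWP232228 and -1.19 ± 0.09 with YB-0158. With ICG-001 its mean was 49.3 CPM, against 100.3 with DMSO. The corrected values kept their calls but were smaller, 0.73 for LARS1, 0.51, 0.47 and 0.72 for FNIP1, and -0.34 and -0.65 for LAMTOR4.

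Of 11 mTOR complex subunits and assembly factors, 3 were higher and 4 lower with each compound, with medians of -0.20, -0.14 and -0.13 with ICG-001, CWP232228 and YB-0158. In each case 63.6% were called, against 48.8%, 42.8% and 43.8% of all genes. With the correction the splits became 3 and 1, 1 and 0, and 3 and 2, and the medians turned to 0.062, 0.018 and 0.029. PRR5, an mTORC2 subunit, changed by -0.69 ± 0.14 (SE), -0.81 ± 0.14 and -0.63 ± 0.14, and lost its call in each with the correction (-0.17, -0.22 and -0.14). Its relative PRR5L rose by 0.60 ± 0.08 with ICG-001 and 0.69 ± 0.08 with YB-0158, and its mean with CWP232228 was 70.7 CPM, against 52.7 with DMSO. RICTOR, which defines mTORC2, rose by 1.11 ± 0.35 with CWP232228, and lost its call with the correction (0.18) and without either CWP232228 library. Its means were 49.1 CPM with CWP232228, 44.3 with ICG-001 and 42.6 with YB-0158, against 31.7 and 13.7 in the DMSO libraries. MTOR itself and RPTOR, which defines mTORC1, are named outside the rule and with values known: MTOR rose by 0.42, 0.38 and 0.42 but lost its calls with the correction (0.062, 0.064 and 0.029), and RPTOR stood at -0.0037, -0.14 and 0.044 and was not called.

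Of 23 growth factor and energy input genes, 9 were higher and 3 lower with ICG-001, 8 and 4 with CWP232228, and 7 and 3 with YB-0158, with medians of 0.23, 0.20 and 0.24. Called were 52.2%, 52.2% and 43.5% of them, against 48.8%, 42.8% and 43.8% of all genes. With the correction these splits became 4 and 5, 1 and 2, and 3 and 6. The phosphoinositide kinase subunit PIK3R1 rose by 0.87 ± 0.21 (SE) with ICG-001 and 0.90 ± 0.21 with CWP232228, and PIK3CB by 0.86 ± 0.12 and 0.72 ± 0.12. Corrected, PIK3R1 stood at 0.24 and 0.22 and PIK3CB at 0.33 and 0.13, and both lost the call with CWP232228. PIK3R1 also lost its call without the second library of ICG-001 or that of CWP232228. With YB-0158 the kinase GSK3B rose by 0.82 ± 0.14 (0.27 corrected) and CAB39, a partner of the energy-sensing kinase LKB1, by 0.69 ± 0.09 (0.37 corrected). GSK3B had means of 83.9 CPM with DMSO, 145 with ICG-001 and 132 with CWP232228, and CAB39 of 61.4, 98.8 and 92.3. With YB-0158, PIK3R1 and PIK3CB had means of 101 and 60.1 CPM, against 63.7 and 37.4 with DMSO.

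Of 18 mTORC1 substrates and outputs, 4 were higher and 5 lower with ICG-001, 4 and 6 with CWP232228, and 4 and 5 with YB-0158, with medians of -0.15, -0.15 and -0.054. The shares called were 50%, 55.6% and 50%, against 48.8%, 42.8% and 43.8% of all genes. The corrected splits were 7 and 7, 2 and 6, and 6 and 7. GRB10, an adaptor that mTORC1 stabilises and that damps insulin signalling, stood at 30.6 and 28.7 CPM with DMSO, 92.5 and 92.4 with ICG-001, 64.4 and 59.5 with CWP232228, and 90.9 and 91.9 with YB-0158. All compound libraries lay above DMSO, and GRB10 rose by 1.64 ± 0.08 (SE), 1.06 ± 0.08 and 1.63 ± 0.08. EIF4EBP3, a relative of EIF4EBP1, changed the other way, by -0.72 ± 0.17, -0.56 ± 0.17 and -0.53 ± 0.17, and none of these calls held with the correction (-0.17, 0.0098 and -0.057). They were also lost without the second ICG-001 library, and with CWP232228 and YB-0158 without the second DMSO library or either library of the compound.

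Of 3 tested relatives and partners of the 10, 1 was higher and 2 lower with ICG-001 and with YB-0158, and 0 and 2 with CWP232228, with medians of -0.39, -0.33 and -0.37. In that order 100%, 100% and 66.7% were called, against 48.8%, 43.8% and 42.8% of all genes. SQSTM1, the autophagy receptor that binds sestrins, stood at 448 and 494 CPM with DMSO, 726 and 684 with ICG-001, 472 and 448 with CWP232228, and 746 and 749 with YB-0158. It rose with ICG-001 by 0.58 ± 0.08 (SE) and with YB-0158 by 0.67 ± 0.08, and the CWP232228 libraries lay within the range of DMSO. With the correction 1 of the 3 genes was higher and 1 lower with each compound, and SQSTM1 was called higher with CWP232228 too (0.28, adjusted p = 0.0016). NIBAN2, the relative of NIBAN1, changed by -0.49 ± 0.08, -0.54 ± 0.08 and -0.41 ± 0.08 (-0.22, -0.19 and -0.16 corrected). KEAP1, the repressor of NFE2L2, changed by -0.37 ± 0.07 with CWP232228, and lost its call with the correction (-0.0021) and without the second CWP232228 library. Its means were 69.0 CPM with DMSO, 52.8 with ICG-001, 53.5 with CWP232228 and 55.0 with YB-0158.

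Between compounds, 1 of the 83 was higher and 3 were lower with CWP232228 than with ICG-001 (4.82% called, against 6.82% of all genes). With YB-0158 5 were higher and 1 lower than with CWP232228 (7.23%, against 7.78%). With the correction these counts were 3 and 11 (16.9%), and 15 and 3 (21.7%). Over all 16449 genes the correction also raised the calls, from 1121 to 3106 and from 1279 to 3047. SQSTM1 was lower with CWP232228 than with ICG-001 by -0.61 (95% interval -0.79 to -0.44, adjusted p = 0.0044) and GRB10 by -0.58 (-0.75 to -0.41, adjusted p = 0.005). With YB-0158 they were higher than with CWP232228, by 0.70 (0.52 to 0.87, adjusted p = 0.0026) and 0.56 (0.39 to 0.73, adjusted p = 0.0048). Both calls against ICG-001 were lost without the first ICG-001 or the second CWP232228 library, and both against CWP232228 without the second CWP232228 library, as was GRB10 without the first YB-0158 library. Between YB-0158 and ICG-001 edgeR called 0 of the 83.

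Known targets of ATF4 and of p53, and the transcription factors known to act on the 10 genes, were counted for comparison. Of 18 tested ATF4 targets, 18, 17 and 18 were higher and 0 lower with ICG-001, CWP232228 and YB-0158, with medians of 2.04, 1.13 and 1.98 on the log2 scale. Over all genes 24.8%, 21.6% and 21.7% were called higher. The amino acid transporter SLC6A9 rose by 4.88 ± 0.14 (SE), 3.50 ± 0.14 and 4.82 ± 0.14. CHAC1 rose by 3.83 ± 0.14 with ICG-001 and 3.68 ± 0.14 with YB-0158, and its mean with CWP232228 was 29.01 CPM, against 5.91 with DMSO. The asparagine synthetase ASNS rose by 2.30 ± 0.09 with CWP232228. Its mean there, 333 CPM, was below those with ICG-001 (425.5) and YB-0158 (393), against 67.6 with DMSO. In the comparison of CWP232228 with ICG-001, 16 of the 18 were lower and 0 higher, where 3.17% of all genes were called lower and 3.65% higher. This list was made with earlier results of these data known, so its direction is no independent evidence.
Of 14 tested p53 targets, 3 were higher and 6 lower with ICG-001, 2 and 4 with CWP232228, and 3 and 6 with YB-0158, with medians of -0.12, -0.078 and -0.044. These were 64.3%, 42.9% and 64.3% called, against 48.8%, 42.8% and 43.8% of all genes. Corrected for GC content and length, the splits were 4 and 5, 4 and 3, and 4 and 5. BTG2, a brake on proliferation, changed by -1.72 ± 0.08 (SE), -0.88 ± 0.08 and -1.65 ± 0.08. FDXR, a mitochondrial reductase, changed by -1.02 ± 0.09 with ICG-001 and -1.06 ± 0.09 with YB-0158 (-0.52 and -0.60 corrected). With CWP232228 its mean was 17.2 CPM, against 29.3 with DMSO. The RNA-binding factor ZMAT3 rose by 1.00 ± 0.14, 0.83 ± 0.15 and 0.76 ± 0.15, and lost its call in each with the correction (0.21, -0.0099 and 0.039).

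Of 12 tested transcription factors, 8 were higher and 1 lower with ICG-001 and with YB-0158, and 6 and 1 with CWP232228, with medians of 0.50, 0.61 and 0.32. In that order 75%, 75% and 58.3% were called, against 48.8%, 43.8% and 42.8% of all genes. DDIT3, the stress factor CHOP, stood at 9.42 and 13.9 CPM with DMSO, 40.8 and 38.2 with ICG-001, 17.2 and 16.1 with CWP232228, and 44.2 and 41.6 with YB-0158. It was higher in every compound library than in DMSO and rose by 1.76 ± 0.16 (SE) with ICG-001 and 1.88 ± 0.16 with YB-0158. CEBPG, a partner of ATF4, rose by 1.60 ± 0.23, 1.13 ± 0.23 and 1.36 ± 0.23. With CWP232228 the CEBPG call was lost with the correction (0.64, adjusted p = 0.078) and without either DMSO library, and with YB-0158 without the second DMSO library. FOXO4 changed by -1.16 ± 0.09, -0.88 ± 0.09 and -0.96 ± 0.08. ATF4 mRNA, named outside the rule, differed from DMSO by 0.020 ± 0.088, -0.018 ± 0.088 and 0.085 ± 0.088 and was not called. Corrected for GC content and length it stood at 0.29, 0.27 and 0.32 and was called higher with all 3 compounds (adjusted p = 4.1e-04, 0.0021 and 2.3e-04). ATF4 protein was not measured.

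Transcript usage, the share of a gene's estimated reads assigned to each transcript, could be tested in 7 of the 10 genes. SESN2, SESN3 and EIF4EBP1 had only 1 transcript that passed the filter. By edgeR's diffSpliceDGE with the Simes method, 0 of the 7 were called with ICG-001 (3.88% of 11611 genes were), 1 with CWP232228 (3.58%) and 0 with YB-0158 (3.2%). At an unadjusted p under 0.05 the only gene was TSC2 in each, with p-values of 0.0025, 0.0013 and 0.0041 (adjusted p = 0.06, 0.039 and 0.09). Between compounds 0 of the 7 were called for CWP232228 against ICG-001 (0.999% of all genes), YB-0158 against ICG-001 (1.01%) or YB-0158 against CWP232228 (1.58%), and TSC2 had adjusted p-values of 0.079, 1 and 0.1.

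The TSC2 call with CWP232228 came from TSC2-202, a coding transcript. It took 8.33% and 5.29% of TSC2 reads with DMSO, 7.97% and 6.36% with ICG-001, 0% and 0% with CWP232228, and 8.88% and 0% with YB-0158. A YB-0158 library thus also stood at 0, and TSC2 has 69 annotated transcripts among which Salmon divides reads by a model. The TSC2 call was lost when any 1 of the DMSO or CWP232228 libraries was left out, and in a gene-level F test. Another transcript of TSC2, the retained-intron TSC2-255, is named outside the rule: it took 0% in both DMSO libraries, 7.73% and 6.88% with ICG-001, 6.26% and 0% with CWP232228, and 7.29% and 3.56% with YB-0158. Its adjusted p over all transcripts was 0.016, 0.042 and 0.024, while the gene's own p was under the threshold with CWP232228 alone.

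SESN1 is transcribed from separate starts, which give coding transcripts with different first exons. SESN1-204 starts at 109094819 and SESN1-202 at 109009555 on chromosome 6 in GRCh38. SESN1-204 took 28.6% and 21.7% of SESN1 reads with DMSO, 35.4% and 30.7% with ICG-001, 28.4% and 27.6% with CWP232228, and 41.8% and 40.7% with YB-0158. The ICG-001 and YB-0158 libraries lay above DMSO and those of CWP232228 within its range, but no usage difference was called (adjusted p = 1 in each comparison with DMSO). SESN1-202 took 63.5% and 72.2% with DMSO and 48.9% and 48.5% with YB-0158.

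RHEB-201 took 43.8% and 41.9% of RHEB reads with DMSO, and 28.0% to 34.2% in the 6 compound libraries, all below DMSO. RHEB-204, another coding transcript, took 50.7% and 51.4% with DMSO and 53.8% to 63.3% with the compounds. The Simes test called no RHEB difference (adjusted p = 1), and the gene-level F test called the one with ICG-001. The main transcript DDIT4-201 took 92.1% to 94.4% of DDIT4 reads in every library, and NIBAN1-201 took 89.8% to 100% of NIBAN1 reads. TSC1 reads were assigned to different coding transcripts from library to library, within groups too, and no share of TSC1 is given.

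**Figure D5:**
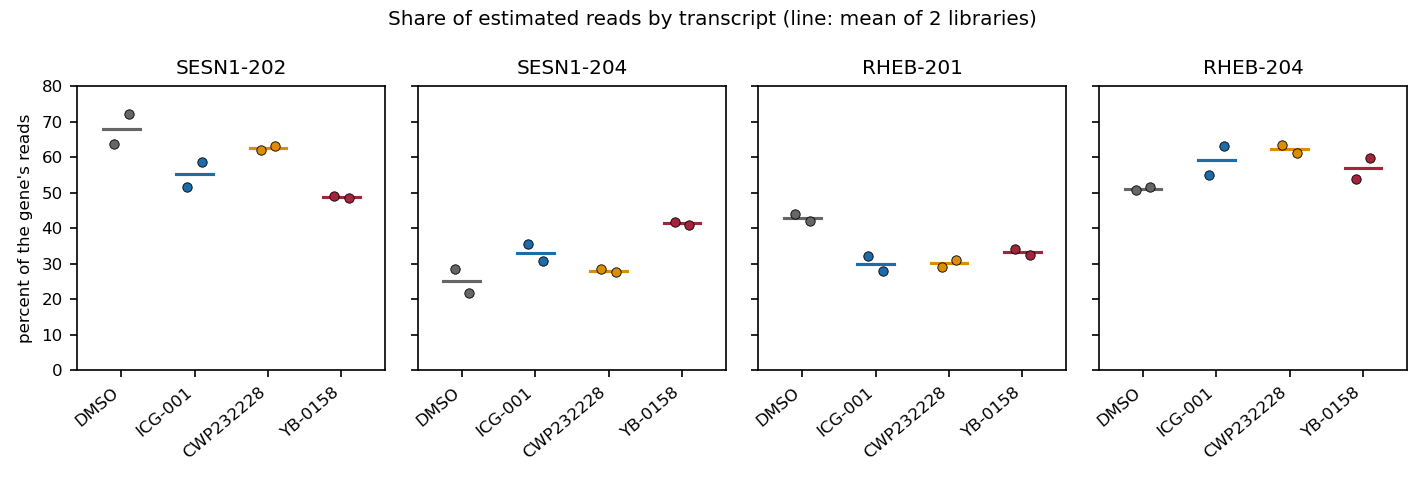
Share of a gene's estimated reads assigned to SESN1-202, SESN1-204, RHEB-201 and RHEB-204 (vertical axis, percent), with 1 point per library and a line at the mean of 2. SESN1-204 is highest with YB-0158, at 41.8% and 40.7%, and RHEB-201 is highest with DMSO, at 43.8% and 41.9%; none of these differences was called by the Simes test.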

How the data were processed

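The deposited file of a library holds, per the file headers, Salmon's estimated counts and TPM per transcript. The authors' deposited tables hold, per gene and compound, a mean signal in normalized counts, a log2 fold change and a p-value, together with FPKM per library, which were not tested. Per the submitters' processing notes, fastp, Salmon 1.3.0, DESeq2 and build GRCh38 were used. Further steps: not given in the sources used here.

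The estimated counts were matched to GENCODE release 29 (204677 of 228754 transcripts), summed per gene and rounded. Unmatched transcripts held 1.54% to 1.85% of reads. The sums of the 10 genes were 1.02 to 1.04 of the authors' deposited mean count. All 8 libraries entered 1 model of 4 groups with 4 residual degrees of freedom in edgeR 4.0.16 (R 4.3.3), with TMM scaling, filterByExpr and the robust quasi-likelihood test. Adjusted p-values are Benjamini-Hochberg values over 16449 genes, and intervals are 95%. A gene's spread is shared by all groups, so p-values against DMSO may be too small. Transcript usage was tested with diffSpliceDGE, with p-values adjusted over 11611 genes. The scripts were checked on simulated data.

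Alternatives were DESeq2 1.42.0, its size factors, no low-count filter, smooth offsets for GC content and length, a replicate block, the 2 groups alone, and each library left out. The 10 genes and all lists were chosen with earlier results of these data known. Named from each list and compound are the 2 called genes with the largest change, with a mean log2 CPM of at least 2 and no overlap between groups. A gene named with only some compounds may have changed with the others too. The 3 genes nearest to SESN2, DDIT4 and NIBAN1 are also named. Counting floors cover counting error only.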

Additional observations from a re-analysis of the deposited data

How the results depend on the processing

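The correction for GC content and length took the called pathway genes with CWP232228 from 46 to 24, and calls over all 16449 genes from 7042 to 4265. It reversed TSC1 with ICG-001 (-0.16) and with YB-0158 (-0.17), EIF4EBP3 with CWP232228 (0.0098) and ZMAT3 with CWP232228 (-0.0099). In DMSO the log2 difference between replicates (first minus second) ran against GC content across genes (rho = -0.59) and in the compounds with it (0.71, 0.54 and 0.52). The fit on the 2 groups compared gave 29 pathway genes with CWP232228, and 4144 of all 15550 genes tested there. Calls over all genes also changed with each library left out. For CWP232228 against ICG-001 and YB-0158 against CWP232228 they fell each time a library of either compound was left out. The counts of the 10 given below therefore do not show how firm these genes are. Those with ICG-001 are against DMSO, on which the genes were chosen, and only describe the processing. With each library left out in turn, pathway genes called ran from 36 to 59 with ICG-001, 21 to 58 with CWP232228 and 28 to 57 with YB-0158. Calls among the 10 then ran from 5 to 7 with ICG-001, 3 to 4 for CWP232228 against ICG-001, and 3 to 4 for YB-0158 against CWP232228. Usage calls with CWP232228 ran from 0 to 1 (DEPTOR, without the first CWP232228 library; TSC2 in none) and numbered 0 by the gene-level F test. Usage with ICG-001 had 1 call by the F test (RHEB), 1 with a minimum mean of 50 reads per transcript (TSC2) and 1 with the replicate block (TSC2). Causes were not tested.

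Deviations of same-numbered libraries correlated at -0.21, -0.26 and -0.19 between DMSO and the compounds, and at 0.12 to 0.51 between compounds. The replicate differences also ran with GC content, in opposite directions in DMSO and the compounds. These correlations therefore cannot tell whether the numbers pair libraries, and no label states a pairing. The replicate block gave 46, 42 and 42 pathway genes against DMSO, 5, 0 and 4 of the 10 between compounds, and 1 usage call with YB-0158 (TSC2). With the numbers crossed in DMSO, an alternative chosen after seeing the data, the pathway counts were 55, 48 and 55.

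With 2 libraries per group, differences smaller than the intervals given could not be shown.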
